A study of Homo sapiens with 16 samples.

Results

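Cultured SK-N-BE(2)c cells with forced MOXD1 expression (MOXD1 OE) were compared with cells that received the empty control plasmid (CTRL). These cultures are 6 of the 16 samples of the series, 3 per group, and were chosen by their labels. The other 10 samples are tumors grown from the same cells. SK-N-BE(2)c is an established human neuroblastoma line, and both groups were made by lentiviral transduction, so CTRL cells carry the virus without the MOXD1 insert. The comparison asks what MOXD1 alone changes in the RNA of these cells before they form a tumor. Whether the transduced cells were a pool or a clone was not found in the sources used here, so a line of single origin on either side cannot be told apart from the effect of MOXD1.

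Neuroblastoma arises from the neural crest cells that give rise to the sympathetic nervous system and the adrenal medulla. Its cells are described along an axis between a committed adrenergic state, held by transcription factors such as HAND2 and GATA3, and an immature mesenchymal state marked by PRRX1, SNAI2 and NOTCH2. MOXD1 is a relative of dopamine beta-hydroxylase (DBH), the copper enzyme that makes noradrenaline, and of PAM, the copper enzyme that amidates neuropeptides. IFI27L2 belongs to the small FAM14 family of interferon-inducible mitochondrial membrane proteins, together with IFI27, IFI27L1 and IFI6.

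The 6 libraries held between 25359185 and 29860356 counts. Of 58039 gene identifiers 28948 had a count, and 16060 reached 10 counts in 3 or more cultures and were tested. Levels are given as CPM, counts scaled to a common library size with TMM,, and differences as log2 fold changes of MOXD1 OE over CTRL from edgeR's quasi-likelihood test with cultures of the same number as pairs. The share of counts from mitochondrial genes was 30.9%, 25.9% and 18.5% in CTRL cultures 1, 2 and 3 and 47.9%, 21.6% and 16.3% in the MOXD1 OE cultures. The components that carried 51.8% and 26.1% of the variance between cultures did not separate the groups. The next component, with 10.2%, did, at 24.5, 32 and 4.22 in CTRL and -20.1, -18.3 and -22.4 in MOXD1 OE.

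The line is described as adrenergic, and adrenergic transcription factors were expressed in every culture. MYCN, the oncogene amplified in many neuroblastomas, stood at 5746, 4769 and 4213 CPM in CTRL and at 5562, 3804 and 4026 CPM in MOXD1 OE. HAND2 lay between 243 and 511 CPM and GATA3 between 123 and 182 CPM, both adrenergic factors. TH, the first enzyme of catecholamine synthesis, was nearly absent, with no more than 0.342 CPM in any culture. PRRX1, a mesenchymal regulator, had 0 counts in all 6, and NOTCH2 and FN1 had at most 2 and 5. Other mesenchymal markers were expressed, with 53 to 231 counts of SNAI2 and 288 to 736 of VIM.

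MOXD1 was the one gene that rose past the threshold, and IFI27L2 the one gene that fell past it. The 2 genes are 0.0125% of the genes tested at a Benjamini-Hochberg adjusted p under 0.05. The next smallest adjusted p of any gene was 0.639.

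MOXD1 (ENSG00000079931, minus strand of chr6:132296055-132401475 in GRCh38) had 1, 19 and 0 counts in the CTRL cultures. The MOXD1 OE cultures had 1138, 9943 and 4573 counts. In CPM this was 0.0389, 0.698 and 0 against 56.9, 340 and 162. All 3 MOXD1 OE cultures stood far above all CTRL cultures, and among themselves they spread with an SD of 143 around a mean of 186 CPM. The log2 fold change was 9.79 with a 95% interval from 8.59 to 10.98 (adjusted p = 0.00132, edgeR). Its size rested on few CTRL counts, and with pair 2 left out it was 12.4, outside this interval. The deposited TPM values gave the same order, with 27.2, 260 and 131 TPM in MOXD1 OE and at most 0.708 TPM in CTRL. Counts per gene do not tell reads of the vector's insert from reads of the gene on chromosome 6.

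IFI27L2 (ENSG00000119632, minus strand of chr14:94127779-94130253) had 86, 126 and 99 counts in CTRL. It had 0, 1 and 0 counts in MOXD1 OE. In CPM the CTRL cultures held 3.34, 4.63 and 2.94, a mean of 3.64 ± 0.88 (SD, n = 3), and the MOXD1 OE cultures no more than 0.0342. The groups did not overlap, and the TPM of IFI27L2 was listed at 0 in each MOXD1 OE culture. The summed counts, 311 against 1, gave a ratio of 278 in favor of CTRL after scaling, with an exact 95% counting interval from 49.5 to 11017. The fitted log2 fold change was -7.75 (SE 0.67, adjusted p = 0.0182, edgeR), a value that depends on the small count edgeR adds to a group near 0. For each of the 2 genes the exact two-sided permutation test over cultures gave p = 0.1, which is the smallest that 3 against 3 allow.

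**Figure D1:**
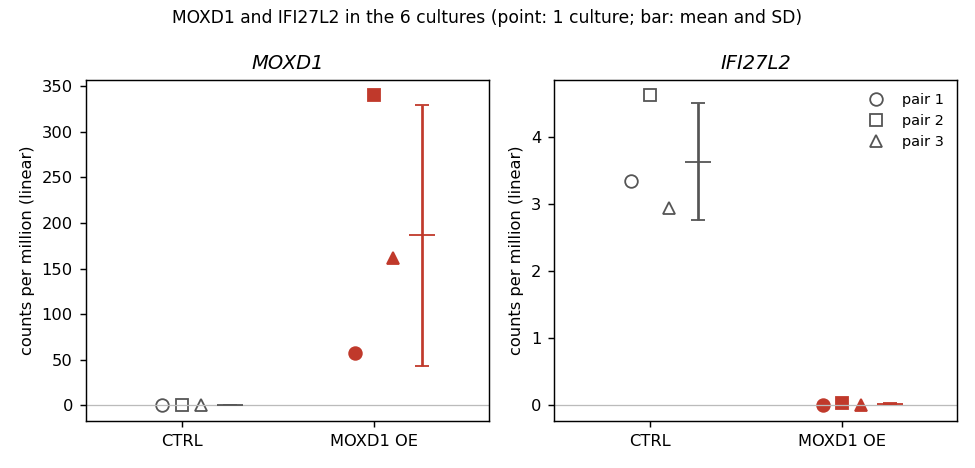
MOXD1 (left) and IFI27L2 (right) in each culture in CPM on linear axes, open grey symbols for CTRL and filled red symbols for MOXD1 OE, the same symbol for cultures of the same number, and a bar for the mean and SD of the 3 cultures. MOXD1 lies between 56.9 and 340 CPM in MOXD1 OE, and IFI27L2 between 2.94 and 4.63 CPM in CTRL, while the opposite group stays near 0 in each panel.

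Both calls rested on the pairing. Without pairs 0 genes were called by edgeR and 190 had an unadjusted p under 0.05, with an adjusted p of 0.473 for MOXD1 and 0.0891 for IFI27L2. The direction and size of both changes stayed, at 9.59 and -7.71 on the log2 scale.

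The position of IFI27L2 bears on how its counts are read. The GRCh38 assembly carries extra versions of some regions, called alternate sequences. All 1512 of the 31-base words in the exons of IFI27L2 also occur on such a sequence of chromosome 14, as do all 2056 of its neighbor IFI27L1 and all 8327 of DDX24, a ubiquitous RNA helicase gene in the same region. None of the 4803 words of MOXD1 does.

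Genes with such a second copy were mostly empty in the 6 cultures. Of 799 protein-coding genes with at least 50% of their transcript words on an alternate sequence, 90.9% stayed below 50 counts in every culture, against 42.4% of the 18651 others. They included genes that all cells use and that were picked here for being low. MIF and NDUFA6, a subunit of respiratory complex I, had 0 counts in all cultures, RPS18 and RPS9, proteins of the small ribosomal subunit, had at most 2 and 5, and DDX24 had between 7 and 29. The counts of IFI27L2 may thus be a remainder of its reads, and its 0 in MOXD1 OE is a count listed at 0, not a measure of all its RNA. All 6 cultures were counted in the same way. The part of the second copy in the difference between the groups was not tested, and which assembly sequences the authors aligned to is not given in the sources used here.

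No other member of the FAM14 family passed the threshold. IFI27L1, which lies 23933 bases from IFI27L2, had 22, 24 and 33 counts in CTRL and 6, 22 and 22 in MOXD1 OE (log2 fold change -0.61, SE 0.47, adjusted p = 0.793, edgeR), with no overlap of the groups in CPM. IFI6 stood at 8.86, 7.93 and 5.13 CPM against 11.1, 5.37 and 6.62 CPM (log2 fold change 0.05, SE 0.25). IFI27 had 0 counts in all cultures. Of 12 annotated genes within 200000 bases of IFI27L2, 2 were tested, IFI27L1 and DDX24, and neither was called. DDX24 had a log2 fold change of 0.09 (SE 0.52).

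IFI27L2 is induced by interferon, so the interferon response was read beside it. It is the program of antiviral genes that interferons switch on. Of 34 listed genes 17 were tested, none was called, and their median log2 fold change was -0.12, against 0.01 for all tested genes. IFIT1 (-0.16, SE 0.41) and IFIT2 (0.14, SE 0.26), which block viral translation, had small differences on the log2 scale. OAS3, a sensor of double-stranded RNA, had the smallest unadjusted p of the list with a log2 fold change of -0.64 (SE 0.31, adjusted p = 0.732, edgeR). The untested genes of the list include 6 with an alternate copy, among them TAP1 and PSMB8 with 0 counts.

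In tumors grown from the same cells IFI27L2 did not follow the groups. In a fit over all 16 samples its CPM in the 5 CTRL tumors was 0.210, 0.0338, 0.136, 2.61 and 3.25. In the 5 MOXD1 OE tumors it was 0.0800, 2.68, 0.175, 7.13 and 0.222. Some tumors of each group held the level of the CTRL cultures and others were near 0. In this fit, which has no pairs, the IFI27L2 effect in cells was -7.74 on the log2 scale. It did not pass the adjusted threshold there. The difference between the effect in tumors and in cells was 8.42 on the log2 scale with an unadjusted p of 0.00264 from edgeR's interaction term, and did not pass adjustment over 18681 genes (adjusted p = 1.00). MOXD1 was higher in all 5 MOXD1 OE tumors, with 71.2 to 239 CPM, than in the CTRL tumors, with 0.101 to 4.33 CPM. Its effect differed from that in cells by -2.93 on the log2 scale (unadjusted p = 0.0372, adjusted p = 1.00, edgeR). The cells and the tumors were counted on different annotation releases and stand in separate tables.

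Beyond these 2 genes the paired fit found lower values more often than higher ones among its small p. An unadjusted p under 0.05 was reached by 892 lower genes, 5.55% of those tested, and by 208 higher genes, 1.30%. The same direction in all 3 pairs was seen for 2714 lower genes (16.9%) and 2426 higher genes (15.1%). The CPM of the groups did not overlap for 601 lower genes (3.74%) and 321 higher genes (2.00%). The 95% interval of the log2 fold change lay between -1 and 1 for 10438 genes, 65% of those tested, and its median half-width was 0.52.

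**Figure D2:**
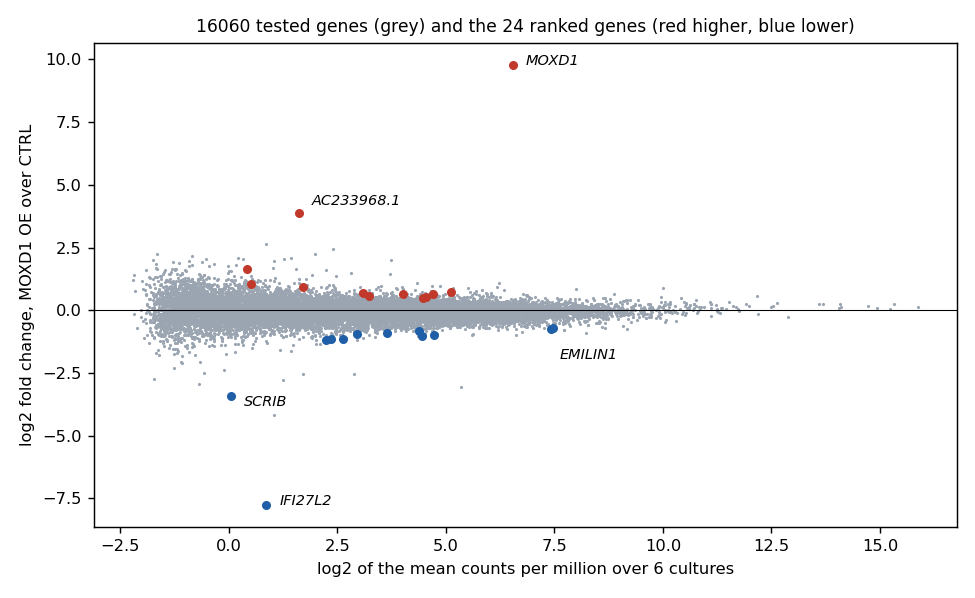
Log2 of the mean CPM over the 6 cultures (x axis) against the log2 fold change of MOXD1 OE over CTRL (y axis) for 16060 genes in grey, with the 12 ranked genes of each direction in red and blue. MOXD1 at 9.79 and IFI27L2 at -7.75 stand apart from all other genes, the ranked genes AC233968.1 and SCRIB lie at 3.89 and -3.43, a lone grey point below SCRIB is FAM156B at -4.16, and well expressed genes lie close to 0.

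The genes with the smallest unadjusted p, among those with a mean of at least 1 CPM, the same sign in all pairs and no overlap of the groups, were listed up to 12 in each direction. Apart from MOXD1 and IFI27L2 none had an adjusted p below 0.639, so their values are given as a description.

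The lower ones are described first. EMILIN1, an elastic-fiber glycoprotein that binds integrins and restrains TGF-beta processing, stood at 222, 204 and 220 CPM in CTRL and at 128, 116 and 138 CPM in MOXD1 OE. It was lower in every pair by a similar amount, with a log2 fold change of -0.76 (95% interval -1.09 to -0.43). LGALS3BP, a secreted glycoprotein that binds galectins and is itself induced by interferon, stood at 26.9, 29.8 and 31.4 CPM against 16.9, 10.6 and 16.2 CPM (log2 fold change -1.04, SE 0.20). The 3 values of each group lay close together and well apart from the other group. FSCN1, the fascin that bundles actin in cell protrusions, stood at 269, 177 and 207 CPM against 163, 102 and 139 CPM (log2 fold change -0.70, SE 0.14). In TPM its values were 125, 99 and 121 against 46.7, 27.8 and 31.1, and the FSCN1 log2 fold change was -1.74. The LGALS3BP log2 fold change moved the other way, to -0.46, from TPM of 219, 189 and 218 against 147, 137 and 170. The groups of both genes stayed apart on either scale, while the size of the difference depended on it.

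INF2, a formin that builds actin filaments, had 12.0, 8.08 and 10.3 CPM against 6.00, 3.90 and 5.88 CPM (log2 fold change -0.95, SE 0.19). LRP3, a membrane receptor, had 35.6, 26.6 and 42.6 CPM against 19, 9.85 and 26.4 CPM (log2 fold change -1.0, SE 0.19). Its highest MOXD1 OE culture came close to its lowest CTRL culture. SCRIB, a scaffold of cell polarity, had 41, 29 and 101 counts in CTRL and 1, 3 and 11 in MOXD1 OE (log2 fold change -3.43, SE 0.52). All 5446 exonic words of SCRIB occur on an alternate sequence as well, as for IFI27L2. PUF60, its neighbor on chromosome 8 and chosen here after its values were seen, had 156, 88 and 109 counts against 0, 24 and 29. It has 54.2% of its transcript words on an alternate sequence.

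The other lower genes of the ranking were C19orf24, DOHH, AC009086.2, FAM171A2 and GTPBP6. Their log2 fold changes lay between -1.19 and -0.82. DOHH is the hydroxylase that completes the hypusine modification of the translation factor eIF5A, and GTPBP6 is a mitochondrial ribosome factor. DOHH had 17, 10.8 and 20.7 CPM in CTRL and 10.6, 5.03 and 10.5 CPM in MOXD1 OE, a small gap between groups that vary widely.

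The higher genes of the ranking formed no common group by name and included several pseudogenes. AC233968.1, a pseudogene copy of the aminopeptidase gene NPEPPS on chromosome 17, had 24, 0 and 15 counts in CTRL and 97, 134 and 216 in MOXD1 OE (log2 fold change 3.89, SE 0.71). NPEPPS itself stood at 55.2, 48.0 and 55.8 CPM against 40.9, 55 and 58.0 CPM. Reads can be split between the copy and its parent, so the count of the copy is uncertain. The processed pseudogenes RPL5P34 and AL161909.1 and the transcribed pseudogene DUXAP10 are uncertain in a like way. AC000068.3 is listed as an antisense RNA, and whether its counting used strand is not given in the sources used here. SLC35F1 (0.93, SE 0.30) and SHISA7 (1.05, SE 0.35) were low coding genes, given as log2 fold changes.

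Among the coding genes, PLCXD3, a phospholipase-like gene, stood at 25.7, 18.4 and 35.1 CPM in CTRL and at 56.6, 37.7 and 36.1 CPM in MOXD1 OE (log2 fold change 0.74, SE 0.24). ZCCHC8, the scaffold of the nuclear exosome targeting complex, had 10.2, 13.0 and 14.7 CPM against 23, 19.8 and 17 CPM (log2 fold change 0.66, SE 0.22). On TPM the ZCCHC8 log2 fold change was 0.16. ZCCHC7, a subunit of the TRAMP complex that also feeds RNA to the nuclear exosome, had 14.7, 23.2 and 23.3 CPM against 32.3, 35.4 and 26.8 CPM (log2 fold change 0.65, SE 0.21). RAB33B, a Golgi GTPase that takes part in autophagosome formation, had 7.5, 7.60 and 7.48 CPM in CTRL, nearly identical, and 10.5, 13.2 and 9.92 CPM in MOXD1 OE (log2 fold change 0.56, SE 0.19).

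**Figure D3:**
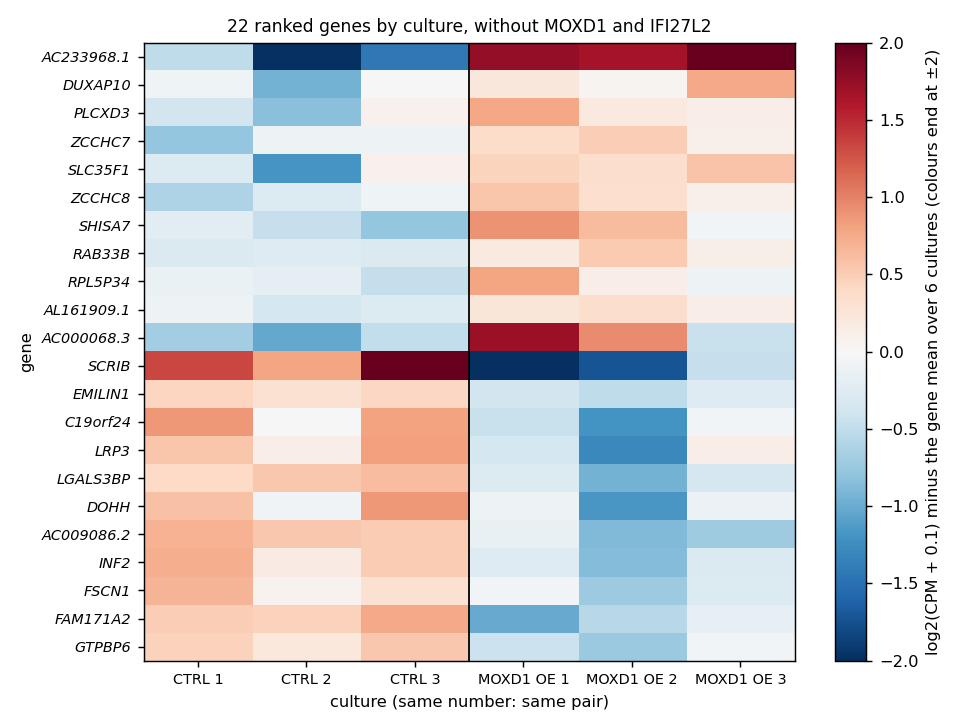
Log2 of CPM plus 0.1 relative to the gene's mean over the 6 cultures, for the 22 ranked genes other than MOXD1 and IFI27L2 (rows) in each culture (columns, CTRL left and MOXD1 OE right), with red for higher and blue for lower and colors ending at 2 either way. Among these genes the strongest contrasts are AC233968.1 and SCRIB, both with few counts, while EMILIN1 shows a small and even difference, and MOXD1 OE culture 2 holds the deepest blue of many lower genes.

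DESeq2 with the same pairs called 10 genes, 0.0623% of those tested, 1 higher and 9 lower. They were MOXD1, IFI27L2, SCRIB, LGALS3BP, LRP3 and EMILIN1 together with CD24, CKB, TBL3 and RN7SL2, the last 4 being named after their values were seen. CD24, a surface glycoprotein of immature neural cells, had 75, 367 and 36 counts in CTRL and 13, 32 and 11 in MOXD1 OE, lower in each pair while CTRL culture 3 lay near the MOXD1 OE cultures. CKB, brain creatine kinase, stood at 77.3, 42.6 and 73.6 CPM against 36.9, 18.8 and 44 CPM. CD24, CKB, TBL3 and RN7SL2 all had lower values in all 3 pairs and groups that overlapped.

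Lower genes were rich in G and C. The median GC content was 56.9% for the 892 lower genes with an unadjusted p under 0.05, 40.6% for the 208 higher ones and 45% for all tested genes. The median log2 fold change went down from class to class, from 0.21 for genes of at most 35% GC to -0.46 for genes above 65%. From the lowest to the highest class it went from 0.38 to -0.22 in pair 1, from 0.24 to -0.73 in pair 2 and from 0.01 to -0.42 in pair 3. In pair 3 the highest median, 0.10, was in the class from 35% to 40%, and in every pair the medians went down with each class from there on. Across genes the rank correlation of the log2 fold change with GC content was -0.476, and genes of 1 library share its depth and base composition.

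Cultures of the same group differed along GC content too. The rank correlations across genes for culture 2 minus 1, 3 minus 1 and 3 minus 2 were -0.329, -0.131 and 0.205 in MOXD1 OE. In CTRL they were -0.115, -0.167 and 0.0307. For MOXD1 OE minus CTRL they were -0.13, -0.574 and -0.351 in pairs 1, 2 and 3. In the class above 65% GC, 50.2% of genes were lower in all 3 pairs, against 16.9% of all tested genes. Taking out a smooth trend with GC content left MOXD1 and IFI27L2 as the 2 called genes, reduced the genes with an unadjusted p under 0.05 from 1100 to 446, and moved EMILIN1 from -0.76 to -0.39 and FSCN1 from -0.70 to -0.38 on the log2 scale. The part of GC content in the lower values of single genes was not tested.

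**Figure D4:**
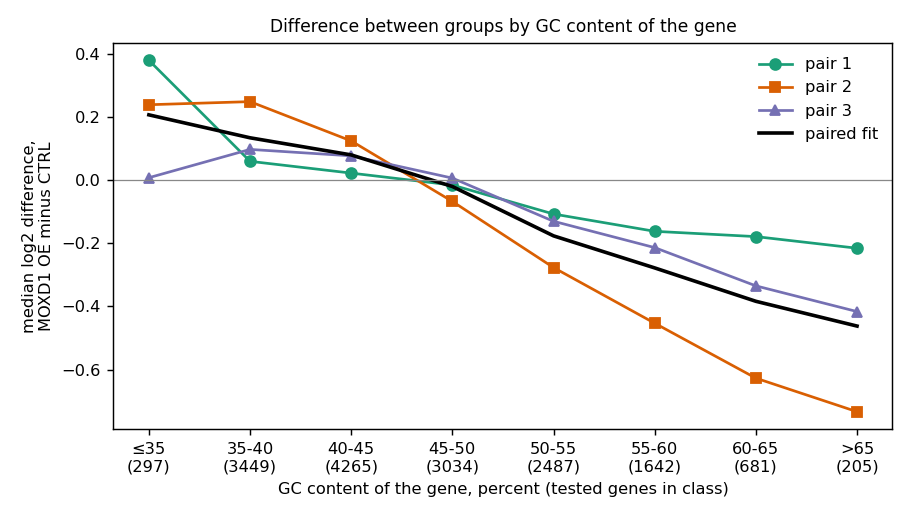
Median log2 difference of MOXD1 OE minus CTRL (y axis) for genes in 8 classes of GC content in percent (x axis, number of tested genes in brackets), in colored lines for the 3 pairs and in black for the paired fit. The black line goes from 0.21 to -0.46, and pair 2 has the steepest course, ending at -0.73.

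Gene lists were then read for the programs named for neuroblastoma or for stress in culture. Together 18 lists held 344 different tested genes, of which IFI27L2 was the 1 called. An unadjusted p under 0.05 was reached by 6 of these genes with higher values, 1.74%, and by 27 with lower values, 7.85%, against 1.30% and 5.55% of all tested genes. The counts below of genes higher or lower in all 3 pairs stand beside 15.1% and 16.9% of all tested genes. On TPM the medians of the catecholamine, neuronal and p53 lists lay below 0. Members outside the naming rule are given as chosen after their values were seen.

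No adrenergic transcription factor passed the test. Of 23 listed, 22 were tested, none was called, and the median log2 fold change was -0.09. HAND2 had a log2 fold change of -0.07 (SE 0.16) and PHOX2A of -0.28 (SE 0.20). SOX11, a factor of immature neural cells, had 5.68, 5.87 and 1.10 CPM in CTRL and 1.35, 1.78 and 0.567 CPM in MOXD1 OE (log2 fold change -1.62, SE 0.33, adjusted p = 0.639, edgeR). It was lower in each pair, but CTRL culture 3 lay below 2 of the MOXD1 OE cultures. INSM1, a neuroendocrine repressor, had the opposite sign at 1.28 (SE 0.48), from 0.700, 1.87 and 0.772 CPM to 4.10, 4.34 and 0.779 CPM.

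No mesenchymal gene passed the test, and the list was split between silent and well expressed members in both groups. Of 30 listed, 13 were tested and 8 had 0 counts in all cultures. TWIST1, a factor of migrating crest cells, stood at 92.9 to 160 CPM. NOTCH2 had at most 2 counts and FN1, fibronectin, at most 5. None of the 13 was called, their median log2 fold change was -0.15, and the lowest and highest members were at -0.67 and 0.17. SNAI2, a repressor active in migrating neural crest, stood at 6.61, 2.35 and 6.86 CPM in CTRL and at 2.65, 6.19 and 7.47 CPM in MOXD1 OE. Its order changed from pair to pair, with a log2 fold change of 0.08 (SE 0.46). SNAI1 (-0.58, SE 0.27) and TWIST1 (-0.02, SE 0.15), factors of the same migratory program, did not pass the test either. THY1, a surface glycoprotein, had the smallest unadjusted p of the list at 75.5, 66.8 and 83.8 CPM against 48.6, 39 and 78.9 CPM (log2 fold change -0.50, SE 0.18).

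Genes of the trunk neural crest and of Schwann cell precursors were mostly not expressed. Of 19, 8 were tested, 7 had 0 counts in all cultures, and SOX10 and FOXD3, which define these cells, were among the latter. SOX9 had a log2 fold change of 0.21 (SE 0.21) and S100B of 0.44 (SE 0.28). No member was called and their median was -0.01.

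The enzymes and carriers of catecholamines, the path in which the MOXD1 relative DBH works, showed no common direction. Of 13 tested genes none was called and the median log2 fold change was 0.07. DBH stood at 118, 746 and 158 CPM in CTRL and at 266, 402 and 126 CPM in MOXD1 OE. It was higher in pair 1, by 1.17 on the log2 scale, and lower in pairs 2 and 3, by -0.89 and -0.33, and the fitted change was -0.03 (SE 0.35). DDC, which makes dopamine, had -0.03 (SE 0.17), SLC18A1, which loads amines into vesicles, had -0.14 (SE 0.16), and SCG2, a protein of the secretory granules, had 0.45 (SE 0.24), all as log2 fold changes.

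Copper handling was described because MOXD1 is a copper enzyme by family. The list held uptake carriers, chaperones, exporters, metallothioneins and other copper enzymes, and 24 of its 32 genes were tested. None was called, and the median log2 fold change was -0.08. PAM had 0.26 (SE 0.16) and the copper importer SLC31A1 0.11 (SE 0.14), each higher in all 3 pairs. SCO2, which delivers copper to cytochrome oxidase, stood at 33.9, 28.2 and 32 CPM against 24.4, 14.1 and 26.8 CPM (log2 fold change -0.57, SE 0.19, adjusted p = 0.657, edgeR). After the GC trend was taken out it was -0.17. SCO2 has a second overlapping entry in the table, so its reads may be split. The exporter ATP7A had 0.09 (SE 0.21), and the metallothionein MT2A -0.64 (SE 0.57).

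The stress response to amino acid shortage and unfolded protein had the highest list median and came almost wholly from pair 1. The list follows ATF4 and its targets together with chaperones of the endoplasmic reticulum. All 28 genes were tested, none was called, and 11 were higher in all 3 pairs and none lower in all 3. The median log2 fold change was 0.53, but it was 1.27 in pair 1, 0.03 in pair 2 and -0.01 in pair 3.

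DDIT3, the factor CHOP, stood at 21.2, 119 and 22.1 CPM in CTRL and at 126, 120 and 26.7 CPM in MOXD1 OE. High values were thus found in both cultures numbered 2 and in MOXD1 OE culture 1, and low values in the other 3. HSPA5, the chaperone BiP, had the same pattern with 1337, 9063 and 1566 CPM against 3577, 10386 and 1715 CPM. SLC7A11, the cystine importer and chosen after its values were seen, had 6.14, 167 and 7.72 CPM against 84.3, 177 and 7.05 CPM. ATF4 was flatter, at 1206, 2157 and 1170 CPM against 2269, 2413 and 1255 CPM (log2 fold change 0.39, SE 0.19). ATF3, the member with the smallest unadjusted p, had 0.64 (SE 0.22, adjusted p = 0.661, edgeR). The same culture 1 of MOXD1 OE had the highest mitochondrial share, 47.9%.

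Genes of the cell cycle and of DNA replication lay on the other side, again through pair 1. All 32 were tested, none was called, 9 were lower in all 3 pairs and none higher in all 3. The median log2 fold change was -0.31, made up of -0.85 in pair 1, -0.04 in pair 2 and -0.01 in pair 3. MCM2, a subunit of the replicative helicase, stood at 172, 62.4 and 189 CPM in CTRL and at 78.5, 38.1 and 163 CPM in MOXD1 OE (log2 fold change -0.69, SE 0.20, adjusted p = 0.639, edgeR). Culture 2 was the lowest of each group, and the groups overlapped. CDT1, which loads that helicase, was lower by a like amount in each pair, by -0.77, -0.55 and -0.59, from 20.6, 8.96 and 22.7 CPM to 12.1, 6.09 and 15.0 CPM. With the GC trend taken out its log2 fold change was -0.20. MKI67 (0.09, SE 0.19), TOP2A (0.02, SE 0.18) and CCNB1 (-0.27, SE 0.25), markers of dividing cells, had small differences on the log2 scale.

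Cholesterol and fatty acid synthesis followed the cell cycle genes. Of 25 tested genes none was called, 24 had a log2 fold change below 0 and 10 were lower in all 3 pairs. The median was -0.30, with -0.78 in pair 1, -0.02 in pair 2 and 0.03 in pair 3. SREBF1, a master regulator of lipid synthesis, stood at 5.68, 12.8 and 4.42 CPM against 3.85, 6.29 and 3.12 CPM and was lower in each pair (log2 fold change -0.71, SE 0.22, adjusted p = 0.649, edgeR).

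Mitochondrially encoded subunits of the respiratory chain showed the same weight of pair 1. All 13 had a fitted log2 fold change above 0, none had the same sign in all 3 pairs, and the list medians were 1.00, -0.36 and -0.15 in pairs 1, 2 and 3. MT-CO1, a subunit of cytochrome oxidase, stood at 68660, 51370 and 35762 CPM in CTRL and at 137186, 36524 and 32157 CPM in MOXD1 OE (log2 fold change 0.11, SE 0.27).

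**Figure D5:**
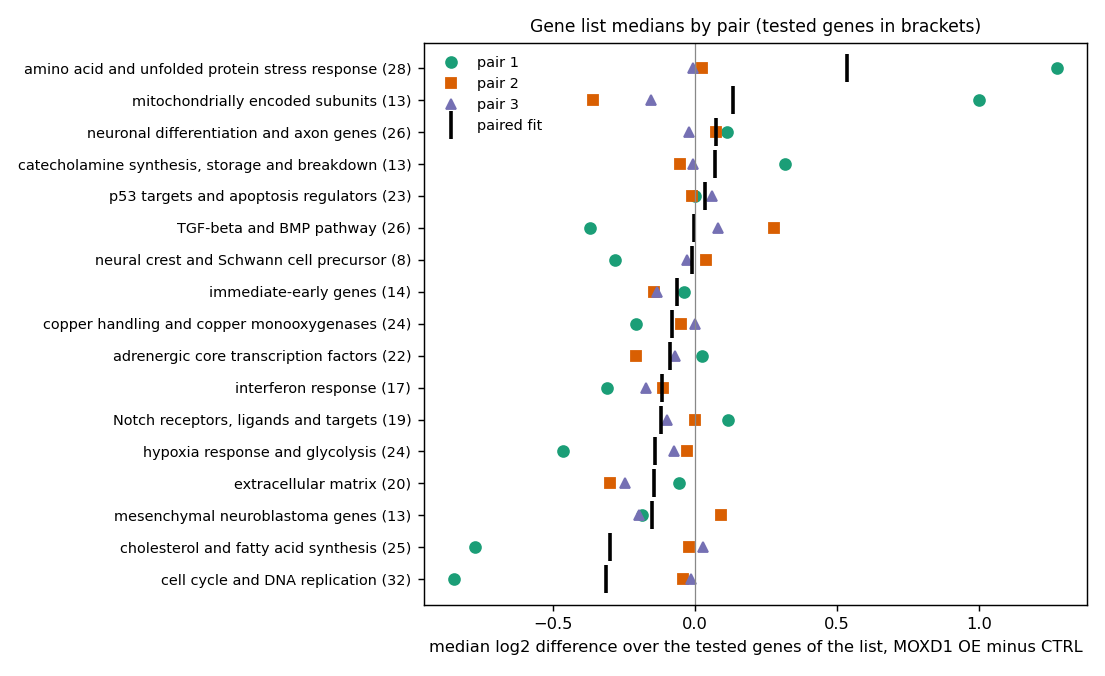
Median log2 difference of MOXD1 OE minus CTRL (x axis) over the tested genes of 17 lists (rows, number of tested genes in brackets), with a colored symbol for each pair and a black bar for the paired fit. For the stress response, mitochondrial, cell cycle and cholesterol lists pair 1 lies far out, at 1.27, 1.00, -0.85 and -0.78, while pairs 2 and 3 stay near 0 except for the mitochondrial list.

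Genes of the other programs had no called member. The hypoxia and glycolysis list (24 tested, median -0.14, 7 lower in all 3 pairs) had ALDOA, the glycolytic aldolase, as its smallest unadjusted p, at 574, 324 and 528 CPM against 293, 197 and 414 CPM (log2 fold change -0.68, SE 0.17, adjusted p = 0.639, edgeR). VEGFA, the angiogenic factor, had 0.52 (SE 0.34). The immediate-early list (14 tested, median -0.06, and 0.22 with the GC trend taken out) had FOS, at 2.68, 79.5 and 1.16 CPM against 1.05, 42.1 and 0.708 CPM (log2 fold change -0.98, SE 0.20, adjusted p = 0.639, edgeR). FOS was lower in each pair, while culture 2 of each group held far more of it than the other cultures.

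In the extracellular matrix list (20 tested of 42, median -0.14, 9 lower in all 3 pairs) SPARC, a collagen-binding glycoprotein, stood at 1.28, 1.47 and 2.17 CPM against 0.30, 0.582 and 1.17 CPM (log2 fold change -1.36, SE 0.42, adjusted p = 0.639, edgeR). LAMB1, a laminin chain, had 0.12 (SE 0.16). COL1A1 had 0 counts in all cultures. With the GC trend taken out, the median of the matrix list was -0.03.

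The Notch list (19 tested of 31) had a median of -0.12. NOTCH1 and NOTCH4 were listed at 0 counts in all cultures, and NOTCH4, unlike NOTCH1, has most of its transcript words, 87.6%, on an alternate sequence. HES1, the classic Notch target, had a log2 fold change of 0.22 (SE 0.20). DLK1, a ligand-like inhibitor of Notch that is abundant in this line, stood at 1176, 1296 and 1129 CPM against 1109, 785 and 911 CPM (log2 fold change -0.37, SE 0.17, adjusted p = 0.732, edgeR). The groups of DLK1 did not overlap.

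The neuronal list (26 tested, median 0.07) and the p53 and apoptosis list (23 tested, median 0.03) were centered near 0. STMN2, a regulator of axonal microtubules, had a log2 fold change of 0.12 (SE 0.15), GAP43, a growth cone protein, of -0.02 (SE 0.21) and TUBB3, neuronal tubulin, of -0.37 (SE 0.16). BAX, the pore-forming death protein, had -0.43 (SE 0.16) and its activator BID -0.54 (SE 0.19, adjusted p = 0.669, edgeR), each lower in all 3 pairs. CDKN1A and MDM2, targets of p53, had 0.41 (SE 0.30) and 0.08 (SE 0.17). The TGF-beta and BMP list (26 tested) had a median of -0.0043, and its ligand TGFB1 had a log2 fold change of -0.22 (SE 0.26).

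Most endothelial, blood cell and epithelial markers were near 0 in all cultures, while part of the fibroblast list was expressed in both groups. Of the 9 endothelial markers only EGFL7, with 53 to 125 counts, was tested. Of the 11 blood cell markers only CD68, with 19 to 46 counts, was tested. PECAM1, VWF, PTPRC and ITGAM had at most 1 count. The summed TPM of the endothelial list ranged from 1.14 to 2.40 over CTRL cultures and from 1.31 to 1.81 over MOXD1 OE cultures, and that of the blood cell list from 0.450 to 0.939 and from 0.555 to 0.759. Among 9 epithelial markers KRT8, KRT5 and KRT14 had 0 counts, and EPCAM, an epithelial adhesion molecule, was the one tested, at 0.389, 1.03 and 0.386 CPM against 1.95, 2.05 and 0.708 CPM (log2 fold change 1.37, SE 0.46, adjusted p = 0.655, edgeR). Of the 11 fibroblast markers 6 were tested and none was called. COL1A1, FAP and POSTN had 0 counts in all cultures, but LUM, a matrix proteoglycan, had between 259 and 1249 counts, PDGFRB between 167 and 644, ACTA2 between 75 and 612, DCN between 19 and 192 and THY1 between 973 and 2824. The summed TPM of the list ranged from 237 to 435 over CTRL cultures and from 178 to 416 over MOXD1 OE cultures.

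The number of genes that passed also depended on pair 1. Without it, 333 genes passed the adjusted threshold, 317 lower (1.97% of those tested) and 16 higher (0.0996%). All 10 genes that DESeq2 called with 3 pairs were among them, but both fits use the cultures of the other pairs. The fit without pair 1 estimates the spread from those few cultures only. Of the 317 lower genes 195 were lower in pair 1 as well. Over all 317 the median log2 difference was -0.18 in pair 1, against a fitted median of -0.80 in the other pairs. The median GC content of these 317 genes was 58.8%. In pair 1 the median log2 difference was -0.02 over all tested genes. Over tested genes from 55% to 60% GC it was -0.16, near the value of the 317. When the GC trend was taken out as well, 203 genes passed, 98 higher and 105 lower, and 89 of these were among the 333.

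Of the 344 listed genes tested, 11 passed without pair 1. Among all 16060 tested genes 333 passed, 1.97% lower and 0.0996% higher. They include ATF5 (-0.80) and SDF2L1 (-0.63) of the stress list, both lower, although the median of that list over 3 pairs was 0.53. SOX11 (-1.44), ALDOA (-0.53), FOS (-0.88) and TUBB3 (-0.51) kept the sign they had with 3 pairs on the log2 scale. DBH and CYB561 passed with log2 fold changes of -0.61 and -0.74, while both were higher in MOXD1 OE culture 1 than in CTRL culture 1. The pairs gave different answers for these genes, and why pair 1 differed was not tested.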

How the data were processed

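RNA of 3 CTRL and 3 MOXD1 OE cultures was sequenced from stranded mRNA libraries. Reads had been mapped by HISAT2 on GRCh38 and summarised per gene by StringTie, with Ensembl release 94 for cells and 99 for tumors. The authors deposited raw counts and TPM per gene. The authors' tables also give the percent of GC bases per gene. Whether counting used strand or read pairs is not given in the sources used here. Repeated identifiers were reduced to the entry with the largest sum (365 removed). A count of 3 equals between 0.100 and 0.118 CPM, and the interval of the IFI27L2 ratio covers counting error only, while intervals of log2 fold changes come from the fit and include the spread between cultures.

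Genes with 10 or more counts in 3 or more cultures were tested with edgeR 4.0.16 (quasi-likelihood, TMM, R 4.3.3) with the replicate number as a block and Benjamini-Hochberg adjustment at 0.05. Alternatives used DESeq2 1.42.0 and limma 3.58.1, no block, other filters and scalings, TPM, and left-out cultures. Correction for GC content was added after seeing the data. The fits were tested on simulated data. Words of 31 bases were compared with 261 alternate sequences of GRCh38, and positions are from GENCODE 44.

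Cultures of the same number were taken as pairs. Deviations from group means correlated at 0.187, 0.671 and 0.675 for numbers 1, 2 and 3, but CTRL culture 1 correlated more with MOXD1 OE culture 3 (0.343). These correlations come from the same values that were tested, so they cannot decide whether the numbers mark true pairs. The cultures are described as biologically independent, and what the number marks is not stated. No 2 cultures of a group agreed within sampling noise.

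The genes named are MOXD1, IFI27L2, the called genes, the 12 with the smallest unadjusted p in each direction (mean of at least 1 CPM, same sign in all pairs, no overlap), and of each list the first 3 tested members, the one with the smallest p and those under 0.01. Not all are printed, and some listed genes are not reported here. The comparison, its members and the lists were chosen with earlier results of these data known.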

Additional observations from a re-analysis of the deposited data

How the results depend on the processing

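The number of called genes depended on the replicate block. With the replicate block it was 2 genes, and 2 or 3 with limma-voom, DESeq2's size factors, filterByExpr, mitochondrial genes left out, TPM, or the GC correction. It was 10 with DESeq2, 113 without a filter on low counts, and 203 with the GC correction and pair 1 left out. Leaving out 1 pair gave between 12 and 333, and leaving out 1 culture without the block gave 0 to 1. With no replicate block it was 0, with or without the GC correction. Listed genes called were 1 in the paired fit, 0 with no replicate block, 0 with the GC correction and no block, 13 without a filter, 10 with the GC correction and pair 1 left out, between 1 and 11 with a pair left out, and 0 with 1 culture left out without the block.

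The MOXD1 log2 fold change kept its direction in all fits, and missed the threshold with no replicate block at 9.59 (9.40 with the GC correction). Over the left-out pairs or cultures it lay between 8.82 and 13.11. The IFI27L2 log2 fold change did so as well, at -7.71 (-7.50 with the GC correction), and lay between -9.62 and -7.21. Of the 22 other ranked genes DUXAP10 reversed, at -0.12 and -0.11 with TPM plus 0.1 and plus 1. Over all pairs of a ranked gene and a setting, direction and call were kept in 413 and the threshold was newly passed in 41. No setting moved the median of all tested genes by over 0.1.

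The low counts of genes with an alternate copy limit what can be said of IFI27L2 and SCRIB, and with 3 pairs a median gene is measured to within 0.52 on the log2 scale.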
